A study of Homo sapiens with 15 samples.

Results

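The 10 genes described here encode regulators of the BCL2 family, the proteins that decide whether mitochondria release the factors that start apoptosis. They were chosen by name from 19794 protein-coding genes and split by side: BCL2, BCL2L1 and MCL1 are anti-apoptotic, and BAX, BAK1, BAD, BID, BBC3, BCL2L11 and PMAIP1 are pro-apoptotic. For each gene, binding sites of BG4, an antibody fragment against folded G-quadruplexes (G4s), were collected within 1 kb of an annotated start site of a protein-coding transcript (the promoter) or anywhere inside the gene. This gave 16 of the 8955 high-confidence regions that the authors deposited, and from 10 to 18 peaks in each of the 5 peak lists.

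The chromatin came from K562, an established chronic myelogenous leukaemia line with erythroid features, grown unsynchronised and without treatment in RPMI-1640 medium with serum, fixed with 1% formaldehyde for 10 min and sheared to fragments of 100 to 500 bp. BG4 immunoprecipitation followed by sequencing was done on 2 biological replicates, the first with 2 technical libraries (1a and 1c) and the second with 3 (2a, 2b and 2c). All libraries share 1 condition and 1 cell line, so there are no groups to compare and no test was made. The input libraries and the methylation libraries of another cell line were not analysed here.

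A G4 is a stack of planar guanine quartets that a strand with several runs of G can fold into, and in chromatin such structures are known to lie mostly at open promoters within CpG islands. In the mitochondrial pathway of apoptosis, BAX and BAK1 form pores in the outer mitochondrial membrane. The guardians BCL2, BCL2L1 and MCL1 hold them in check, and BH3-only proteins such as BAD, BID, BBC3, BCL2L11 and PMAIP1 either block the guardians or activate the effectors. The G-rich promoter of BCL2 is a textbook G4-forming sequence studied in vitro.

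The peak lists held from 8059 (2a) to 12495 (1a) peaks, with a median fold enrichment between 6.03 and 6.78. Each of the 8940 high-confidence regions off the mitochondrial chromosome was identical to a stretch covered by peaks of at least 3 of the 5 libraries. The deposited lists of libraries 2a and 2c carry each other's letter inside their names. Values here follow the labels of the samples, and those of 2a and 2c could be interchanged. Of 9 genes that mark K562, 4 (44.4%) had a promoter region, near the 34.9% of all protein-coding genes, and of 4 markers of other blood cells 0 had one. CpG islands lay at 5 of the 9 and 1 of the 4, and a BG4 peak does not measure expression.

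A high-confidence region lay at the promoter of 7 of the 10 members, namely BCL2L1, MCL1, BAX, BAK1, BAD, BBC3 and BCL2L11. Over all protein-coding genes the share was 34.9%, and among genes with a CpG island near a start site (a window of 500 bp with GC from 55% and CpG at 0.65 or more of the number its bases predict) it was 45.4%. Such an island lay near a start site of 9 of the 10 members, all except BAK1, and of 14944 of the 19794 protein-coding genes. By side, 2 of 3 anti-apoptotic and 5 of 7 pro-apoptotic members had a promoter region, so both sides held members with and without one. Among the pro-apoptotic members these were 2 of 2 effectors and 3 of 5 BH3-only genes. Searching the gene bodies as well added no further member, and 37.7% of all genes had a region by that wider search.

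Sequences of 8 of the 9 promoter regions are shown because G4s form from runs of G. All are from hg19 (GRCh37), read 5′ to 3′, and the parts in untranslated exons are left out. Capitals mark a G4 motif, here 4 G runs, each of at least 3, joined by loops of 1 to 7 bases. A loop may itself be G, so a long G run can count as more than 1 run, as in BBC3 region 2 and region 6. In the sequences of BCL2L1, BAX and BAK1 and of the second BCL2L11 region, no whole motif lies in the stretch. There capitals mark the runs of 3 or more G.
BCL2L1, chr20:30311345-30311537, minus strand: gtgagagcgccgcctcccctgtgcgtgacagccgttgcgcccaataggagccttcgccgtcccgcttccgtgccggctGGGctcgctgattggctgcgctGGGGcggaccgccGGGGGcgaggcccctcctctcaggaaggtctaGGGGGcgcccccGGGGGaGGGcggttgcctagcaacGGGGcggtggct
MCL1, chr1:150552255-150552372, plus strand: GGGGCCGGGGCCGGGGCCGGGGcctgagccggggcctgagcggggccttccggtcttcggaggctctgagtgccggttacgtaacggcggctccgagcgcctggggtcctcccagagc
BAX, chr19:49457943-49458118, plus strand: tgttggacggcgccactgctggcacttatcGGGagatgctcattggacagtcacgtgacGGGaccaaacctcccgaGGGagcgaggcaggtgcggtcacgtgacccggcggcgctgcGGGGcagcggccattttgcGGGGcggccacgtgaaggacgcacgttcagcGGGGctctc
BAK1, chr6:33548071-33548131, minus strand: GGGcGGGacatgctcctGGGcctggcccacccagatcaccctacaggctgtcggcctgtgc
BAD, chr11:64052236-64052300, minus strand: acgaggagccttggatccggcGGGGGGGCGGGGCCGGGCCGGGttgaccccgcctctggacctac
BBC3 region 2, chr19:47733713-47733858, minus strand: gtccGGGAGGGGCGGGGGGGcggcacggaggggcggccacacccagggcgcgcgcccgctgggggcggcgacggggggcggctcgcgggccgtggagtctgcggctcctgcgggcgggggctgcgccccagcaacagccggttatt
BCL2L11 region 1, chr2:111878245-111878467, plus strand: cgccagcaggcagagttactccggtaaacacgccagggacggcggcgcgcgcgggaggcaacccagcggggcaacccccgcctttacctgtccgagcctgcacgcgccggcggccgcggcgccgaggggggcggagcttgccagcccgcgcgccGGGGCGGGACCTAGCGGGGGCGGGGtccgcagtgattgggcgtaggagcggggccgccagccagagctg
BCL2L11 region 2, chr2:111880007-111880152, plus strand: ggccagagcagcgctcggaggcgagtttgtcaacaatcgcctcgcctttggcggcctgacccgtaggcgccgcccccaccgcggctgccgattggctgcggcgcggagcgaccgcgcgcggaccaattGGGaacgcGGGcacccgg

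The 3 members without a promoter region are shown by motifs close to their start sites, with the G runs in capitals, since they hold the same letters as the bound promoters. The matches on BCL2 lie 158 bp upstream of its most upstream start site and across that site, those of BID 37 and 14 bp upstream of a start site, and that of PMAIP1 97 bp upstream.
BCL2 motif 1, chr18:60987507-60987531, minus strand: GGGccaGGGagcGGGGcggaGGGGG
BCL2 motif 2, chr18:60987351-60987374, plus strand: GGGGcGGGcgcGGGaggaaGGGGG
BID motif 1, chr22:18257289-18257307, minus strand: GGGGGcGGGccGGGGcGGG
BID motif 2, chr22:18257264-18257286, minus strand: GGGGcGGGcccGGGcgtGGGGGG
PMAIP1 motif 2, chr18:57567121-57567141, plus strand: GGGGcGGGGacaGGGGcGGGG

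A motif on either strand lay within 1 kb of a start site of 9 of the 10 members, all except BAX, and of 73.4% of all protein-coding genes. Within these windows the members held 35 motifs that did not overlap each other, 23 of them on the gene's own strand. Of the 35, 10 were touched by a peak of at least 1 library and 7 by a high-confidence region. The members with a promoter region held 22 motifs, 9 of them under a peak, and those without one held 13, with 1 under a peak. That split rests on the same peaks, so the contrast follows largely from it. The share of promoter motifs under a peak over all genes was not computed. A motif in the promoter and a BG4 region there went together in some members and not in others. Over all genes, 40.7% of those with a motif near a start site had a promoter region, against 18.6% of those without. Among genes with a strict island the shares were 46.8% and 38.1%.

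BCL2, the founding anti-apoptotic gene of the family (ENSG00000171791, minus strand, chr18:60790579-60987361), had no peak in any of the 5 libraries, neither within 1 kb of its 5 coding start sites nor elsewhere in its 196783 bp. Its promoters held a strict CpG island and 4 motifs, and their GC content, 52.6%, was the lowest of the 10 members. That value pools 7319 bp, including the windows around start sites 157900 and 161531 bp downstream of the canonical one. The GC content around the canonical start site alone was not computed. No peak of any library at the promoter or in the gene was also the case for 46.9% of all genes. Among the 1518 genes at least as long as BCL2 it was the case for 55.0%, and among genes with both a strict island and a motif near a start site for 32.9%. In bulk chromatin a G4 that forms in few cells and one that forms weakly in all cannot be told apart, and the read depth is unknown, so a missing peak says only that the caller's threshold was not reached.

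BCL2L1 encodes BCL-XL, the guardian known for its role in erythroid and platelet survival (ENSG00000171552, minus strand, chr20:30252255-30311792). Its single region, chr20:30311345-30311546, was 202 bp wide, had 74.3% GC and lay with its middle 113 bp upstream of a coding start site and 774 bp upstream of the canonical one. The authors' fold enrichment there was 6.61 and 9.15 in libraries 1a and 1c of replicate 1 and 5.51, 5.98 and 6.02 in 2a, 2b and 2c of replicate 2. All 5 libraries had the peak, and 1c stood above the others. Fold values were ranked within their own list, as the percentage of that list's peaks at or below the value. The percentile was 65.5 in replicate 1 and 39.3 in replicate 2, with a mean of 52.4 ± 18.5 (SD, n = 2). No whole motif lay in the region. A motif 76 bp downstream of that start site, on the other strand, was touched by the wider peaks of 1a and 1c only.

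MCL1, a short-lived guardian that blood cells are known to depend on (ENSG00000143384, minus strand, chr1:150533371-150552214), had 3 regions. The promoter region, chr1:150552255-150552372, 118 bp wide and 77.1% GC, had its middle 99 bp upstream of the most upstream start site. It had a fold of 10.7 in 1a, 8.61 in 1c and 6.07 in 2c, and no peak in 2a or 2b. Both libraries of replicate 1 were thus high, and of replicate 2 only 1 library had the peak, so the region meets 3 libraries exactly and is lost when 1a, 1c or 2c is left out. The percentile was 83.3 in replicate 1 and, from 2c alone, 50.4 in replicate 2 (66.9 ± 23.3, SD, n = 2). The region starts with GGGGCC repeats on the strand opposite to MCL1, and this G-rich tract continues past the edge nearest the gene. A scan of the whole promoter places its motif at chr1:150552239-150552258, partly inside the region. The start site of a long noncoding RNA on the plus strand (ENSG00000290074) lies 21 bp from the region.

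The other MCL1 regions lie far from its start sites and beyond the canonical transcript. They fall inside the gene only by a longer transcript whose coding sequence is not defined. One, chr1:150534590-150534775, lies 17.3 kb downstream of the nearest coding start and covers a start site of the noncoding gene ADAMTSL4-AS1, and the other, chr1:150533862-150534025, covers that of the long noncoding RNA ENSG00000289457. In the first the fold was 9.29 in 1a, 11.3 in 1c, 3.93 in 2a and 4.22 in 2c. In the second it was 8.72, 8.48, 4.26 and 4.74 in the same libraries. Library 2b had no peak in either. At both sites the libraries of replicate 1 were high in their lists, at percentiles 79.2 and 93.9 for the first and 74.3 and 78.1 for the second. Those of replicate 2 were low, at 1.78 and 10.5 for the first and 4.13 and 19.9 for the second.

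**Figure D1:**
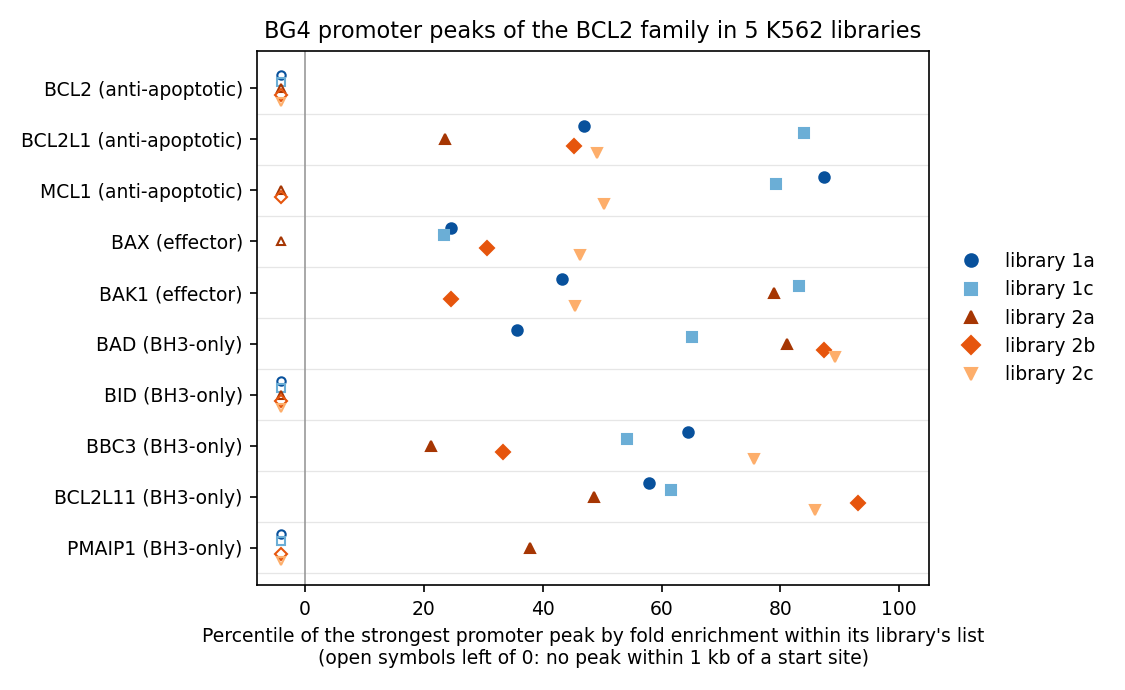
Percentile of the fold enrichment of the strongest promoter peak within its own library's list (horizontal axis), for each member (rows) and each of the 5 libraries (symbols; blue, biological replicate 1; orange to brown, replicate 2). Open symbols left of 0 stand for libraries without a promoter peak: all 5 for BCL2 and BID, 4 for PMAIP1, 2a and 2b for MCL1 and 2a for BAX.

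BAX, the cytosolic effector that moves to mitochondria and a textbook p53 target (ENSG00000087088, plus strand, chr19:49458072-49465055), had 1 region, chr19:49457943-49458118, 176 bp wide with 67.6% GC. Its middle lay 102 bp upstream of the canonical start site. The fold was 5.49 in 1a, 5.38 in 1c, 5.39 in 2b and 5.86 in 2c, with no peak in 2a. These 4 values lay close together and low in their lists, with percentiles of 24.0 in replicate 1 and 38.4 in replicate 2 (31.2 ± 10.2, SD, n = 2), the lowest mean of the 7 members with a promoter region. BAX was also the only member without a motif near a start site, and its sequence above holds 6 separate runs of 3 or more G. Under wider definitions, loops of up to 12 bases or runs of at least 2 G, a motif was found, as in 85.2% and 99.5% of all genes.

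Just outside the search, 628 bp beyond the 3′ end of BAX, lay another high-confidence region (chr19:49465683-49465868) with peaks in 1a, 1c, 2a and 2c and folds from 7.03 to 9.75. A second one, 2067 bp beyond that end (chr19:49467122-49467257), had peaks in all 5 libraries with folds from 4.87 to 7.13, a range that spans the folds of the BAX promoter. Regions also lay 2638 bp beyond the 3′ end of BCL2L1 (3 libraries, 5.81 to 6.41) and 1093 bp beyond that of BAK1 (4 libraries, 5.73 to 6.04).

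BAK1 encodes the effector that resides in the mitochondrial outer membrane (ENSG00000030110, minus strand, chr6:33540324-33548070). Its region, chr6:33547961-33548131, lay across the start site, with 93 of its 171 bp in the 5′ untranslated exon and 78 upstream. The fold was 6.46 and 9.07 in libraries 1a and 1c of replicate 1 and 8.66, 5.09 and 5.84 in 2a, 2b and 2c of replicate 2. Each replicate held both high and low libraries, so the replicates overlapped, and the mean percentile was 56.4 ± 9.56 (SD, n = 2). BAK1 was the only member without a strict island, and its region, at 66.1% GC with 0.482 of the CpG number its bases predict, met neither island definition. A motif 70 bp upstream of the start site, chr6:33548129-33548152, reached 3 bases into the region and was touched by the peaks of 1a, 1c and 2b. It is shown because it adjoins the peak over the start site:
BAK1 motif 1, chr6:33548129-33548152, minus strand: GGGaggtGGGGtGGGGaaagtGGG

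BAD, a BH3-only protein whose activity is set by growth factor signalling (ENSG00000002330, minus strand, chr11:64037302-64052176), had a region at each end of the gene, both with peaks in all 5 libraries. The promoter region, chr11:64052095-64052300, had 71.8% GC and its middle 60 bp upstream of the canonical start site. The fold was 5.98 and 7.36 in libraries 1a and 1c of replicate 1 and 8.91, 8.85 and 9.18 in 2a, 2b and 2c of replicate 2. Here all 3 libraries of replicate 2 stood above both of replicate 1, with percentiles of 85.9 and 50.4 (68.1 ± 25.1, SD, n = 2), the opposite order to that at MCL1. GPR137, a membrane protein gene read in the other direction, starts 52 bp from the region, so the peak cannot be given to BAD alone. The single motif lay on the BAD strand, and the 5 summits were between 32 and 69 bp from it.

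The second BAD region, chr11:64037393-64037732, covered 291 bp of the 3′ untranslated exon and 49 bp of coding sequence. It also covered a start site of GPR137. Its folds were 8.61 and 7.58 in libraries 1a and 1c of replicate 1 and 6.69, 6.87 and 6.53 in 2a, 2b and 2c of replicate 2, so that here replicate 1 stood above replicate 2, also by percentile (67.2 or more against 63.3 or less). The 2 ends of the gene thus had the reverse order of replicates in the same libraries. Inside the gene, 1a had a further BAD peak with its summit 247 bp downstream of an internal start site (fold 5.94). At the edge of the search, a peak of 2c, with its summit 1066 bp upstream of a start site, reached into the window by its edge (fold 4.78). Neither was shared by another library.

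BID, which links death receptors to mitochondria once caspases cut it (ENSG00000015475, minus strand, chr22:18216904-18257536), had no peak in any library. Its promoters had 63.5% GC, second only to those of BCL2L11, a strict island and 6 motifs, of which the pair shown above lies within 63 bp of the canonical start site. Among the 7746 genes at least as long as BID, 41.6% had no peak either.

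PMAIP1 encodes NOXA, a p53-induced BH3-only protein that binds MCL1 (ENSG00000141682, plus strand, chr18:57567228-57571537). It had a peak in library 2a alone, chr18:57567135-57567265, with its summit 50 bp upstream of the start site, a fold of 6.18, a −log10 p of 9.10 and a percentile of 37.9. The peak touched the PMAIP1 motif shown above. No other library had a peak at the gene, so it entered no high-confidence region. Library 2a is the shortest of the 5 lists and 1 of the pair whose names are crossed.

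BBC3 encodes PUMA, the BH3-only protein that p53 induces and that can bind all guardians (ENSG00000105327, minus strand, chr19:47724079-47736023). It had 6 high-confidence regions, spread over 5408 bp from chr19:47729329 to 47734736 and covering 1159 bp of it. At least 6 regions were found at 11 protein-coding genes (0.0556%), and of the 5914 genes no longer than BBC3, 1 had as many, BBC3 itself. That threshold is the count of BBC3 itself, the highest of the 10 members, and its rarity was not tested. Most regions stood on 3 or 4 libraries. The libraries with the longest lists had the most peaks, 6 in 1a and 7 in 2c, against 5 in 1c, 3 in 2a and 3 in 2b. The number of regions was 3 without 1a, 4 without 1c, 6 without 2a, 5 without 2b and 3 without 2c. At least 3 regions were found at 231 genes without 1a and at 241 without 2c. With stretches of all 5 libraries the number at BBC3 was 2, which 591 genes reached or passed. With peaks of a −log10 p of at least 10 it was also 2. These settings were chosen after seeing the data.

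The BBC3 regions that all 5 libraries shared were the first and the last. Region 1, chr19:47734400-47734736, 337 bp wide with 81.0% GC, lay across the canonical start site, with 280 bp upstream and 57 bp in the 5′ untranslated exon. Its folds were 5.19 and 6.75 in libraries 1a and 1c of replicate 1 and 4.73, 5.47 and 7.59 in 2a, 2b and 2c of replicate 2. The replicates overlapped, with 2a the lowest and 2c the highest library. It held 2 motifs side by side on the gene's strand, and in 2 of 5 libraries the summit fell inside a motif. Region 6, chr19:47729329-47729690, lay 4947 bp downstream in an intron, was 362 bp wide with 79.0% GC, and held 3 motifs. Its folds were 8.23 and 7.32 in libraries 1a and 1c of replicate 1 and 9.58, 8.69 and 7.30 in 2a, 2b and 2c of replicate 2, above those of region 1 in every library except 2c. It is printed because the strongest peaks shared by all libraries at BBC3 lie there, without the 62 bases nearest the 3′ end, which cut 1 of the 3 motifs:
BBC3 region 6, chr19:47729391-47729690, minus strand: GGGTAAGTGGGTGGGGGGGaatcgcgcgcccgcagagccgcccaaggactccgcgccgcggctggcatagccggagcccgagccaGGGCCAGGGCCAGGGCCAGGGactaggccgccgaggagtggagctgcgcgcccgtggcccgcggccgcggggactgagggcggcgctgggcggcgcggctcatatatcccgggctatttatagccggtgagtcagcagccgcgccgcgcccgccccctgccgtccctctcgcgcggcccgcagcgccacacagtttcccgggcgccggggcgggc

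Between them, region 2 (chr19:47733713-47733858, 671 bp downstream of the start, 82.2% GC, 1 motif) had folds of 7.79 in 1a, 5.73 in 1c, 5.43 in 2a and 6.29 in 2c, and no peak in 2b. Regions 3 (chr19:47731733-47731880), 4 (chr19:47731243-47731277) and 5 (chr19:47730386-47730516) had peaks in 3 libraries each, no motif and a GC content of 66.2%, 54.3% and 59.5%. Region 3 had folds of 5.19 in 1a, 5.49 in 1c and 3.40 in 2c. Region 4, only 35 bp wide, had 5.07 in 1a, 5.08 in 2b and 5.03 in 2c. Region 5 was the strongest of the 3, with 8.41 in 1a, 8.24 in 1c and 8.94 in 2c, and the microRNA gene MIR3191 begins 187 bp from it. All 3 needed 1a and 2c, the longest lists. No peak of any library lay within 1 kb of the other coding start site of BBC3, 1567 bp upstream. For the strongest promoter peak the mean percentile of BBC3 was 51.3 ± 11.2 (SD, n = 2).

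**Figure D2:**
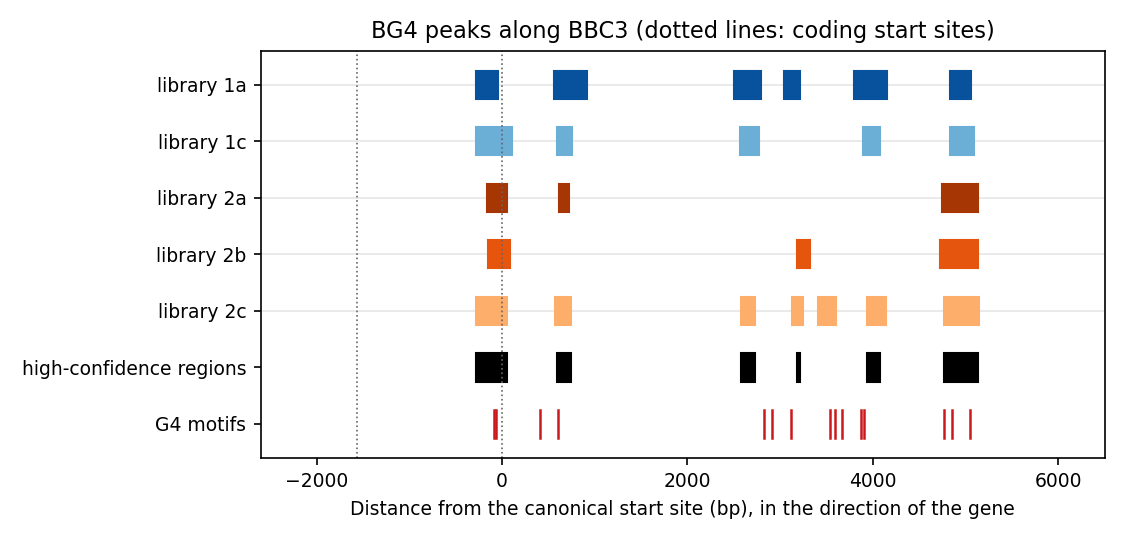
BG4 peaks of each library, the 6 high-confidence regions and the G4 motifs along BBC3, by distance in bp from its canonical start site in the direction of the gene, with dotted lines at the coding start sites. Peaks at the start site and about 5 kb into the gene recur in all 5 libraries, and those between them are fewest in 2a and 2b.

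BCL2L11 encodes BIM, the BH3-only protein that kills blood cells after loss of survival signals and that tyrosine kinase inhibitors are known to induce in BCR-ABL1 leukaemia (ENSG00000153094, plus strand, chr2:111876955-111926021). It had 2 promoter regions. Region 1, chr2:111878245-111878467, lay 135 bp upstream of the canonical start site, with folds of 7.27 in 1a, 5.49 in 1c, 9.76 in 2b and 8.66 in 2c and no peak in 2a. It had 1 motif on the gene's strand, no more than 28 bp from any of the 4 summits. Region 2, chr2:111880007-111880252, lay 1638 bp downstream of the canonical start in an intron and across another coding start site, 24 bp from its middle. There the folds were 7.09 and 7.11 in libraries 1a and 1c of replicate 1 and 6.70, 8.96 and 7.17 in 2a, 2b and 2c of replicate 2, with 2b apart from 4 libraries that lay close together. Both regions had 77% GC or slightly more (77.1% and 77.2%), but region 2 held no motif on either strand. Its printed stretch, which leaves out 100 of its 246 bases, holds 2 runs of 3 or more G on the printed strand. Runs of G on the other strand were not counted. For the strongest promoter peak the mean percentile was 67.8 ± 11.4 (SD, n = 2), from 59.7 in replicate 1 and 75.9 in replicate 2. The replicates overlapped, since 2a, at 48.7, lay below 1a (57.9) and 1c (61.6). That peak was the one of region 1 in 1a, 2b and 2c and the one of region 2 in 1c and 2a. BCL2L11 promoters had the highest GC content of the 10 members, 65.4%. The noncoding gene MIR4435-2HG overlaps both regions on the other strand.

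Counted per library, a promoter peak was present at 7 members in 1a (38.6% of all genes in that library), 7 in 1c (32.7%) and 7 in 2c (39.1%), and at 6 in 2a (32.0%) and 2b (35.5%). The members were not the same in each library: 2a lacked BAX and MCL1 and had PMAIP1, and 2b lacked MCL1. At 5 members, BCL2L1, BAK1, BAD, BBC3 and BCL2L11, the promoter held a stretch covered by all 5 libraries, as it did for 22.1% of all genes. Of the 3 guardians only BCL2L1 was among them, and of the 7 pro-apoptotic genes BAK1, BAD, BBC3 and BCL2L11. No order by role was seen in the percentiles. Their means ran from 31.2 at BAX to 68.1 at BAD, both pro-apoptotic, with BCL2L1 and MCL1 between them, and the SD over the replicates, from 9.56 to 25.1, was larger than most gaps between neighbours in that order. The median over the 7 members with a promoter region was 56.4, so the strongest promoter peaks of these members stood near the middle of their lists. Libraries without a promoter peak do not enter the means, and where a library had more than 1 such peak only the strongest was ranked.

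The 16 member regions were not uniform among the libraries. Library 1a had a peak in all 16, 2c in 16, 1c in 15, and 2a and 2b in 10 each (62.5%). Over all 8940 regions these shares were 92.0% in 1a, 95.2% in 2c, 81.0% in 1c, 79.4% in 2a and 84.4% in 2b. Peaks of all 5 libraries met in 7 member regions (43.8%, against 55.0% of all regions), of 4 libraries in 5 and of 3 in 4. A whole motif lay in 7 of the 16 (43.8%, against 34.7%), the median GC content was 69.7% (against 70.1%), and 12 lay in a strict island (75.0%, against 83.2%). With 16 regions on 7 genes, 6 of them on BBC3, these shares describe the set and no difference was tested.

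The other genes of the pathway were taken as 6 lists of 45 genes, of which 26 (57.8%) had a promoter region and 17 a stretch covered by all 5 libraries, beside 34.9% and 22.1% of all genes. Of the 45, 40 had a strict island, as had 14944 of all 19794 genes. Among all genes with one the share with a promoter region was 45.4%. Beside the members, 6 of 12 other BCL2 family genes had a promoter region. Among them the guardian BCL2L2 (BCL-w) had folds from 6.74 to 15.1 in 5 libraries, above BCL2L1 at the upper end, and BCL2L13, a mitochondrial relative, from 5.73 to 8.20. The guardians BCL2A1 and BCL2L10 had no promoter peak. Downstream of the pore, 7 of 8 genes of mitochondrial release and the apoptosome had a region. They included CYCS, cytochrome c (5.33 to 9.37), APAF1, the apoptosome scaffold that binds it (4.17 to 8.72), DIABLO (6.53 to 16.3) and HTRA2 (9.18 to 14.8), both released to oppose the inhibitors of apoptosis, ENDOG, a mitochondrial nuclease, and VDAC2, the channel that holds BAK1.

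Of 7 caspases 4 had a region, among them CASP9, the protease the apoptosome activates (8.53 to 14.3), and CASP2 (5.72 to 10.9), while CASP10 had no promoter peak. Of 5 inhibitor of apoptosis genes 4 had one, BIRC2, BIRC5 and BIRC6 in all 5 libraries, and BIRC3 had no peak. In the death receptor pathway it was 1 of 8, the kinase RIPK1 (7.65 to 12.4). Of these genes 7 have a strict island and all 8 a motif, which 73.4% of all genes have. Among all genes with a strict island and a motif, 46.8% had a promoter region. The receptor FAS and the caspase-8 inhibitor CFLAR had no promoter peak. Outside the naming rule, and chosen after their values were seen, the adaptor TRADD had a promoter peak in 3 libraries, the receptor TNFRSF10A in 2, and FADD and TNFRSF10B in 1 each. Of 5 regulators around p53 there were 4, with MDM2, the ligase that degrades p53 (3.80 to 12.4), and TP53BP2 (7.14 to 11.1) in all 5 libraries. By promoter region the share was highest for mitochondrial release and the apoptosome (87.5%) and lowest for death receptors (12.5%). By genes without any promoter peak the order was another, with 3 of 8 death receptor genes, 3 of 7 caspases and 6 of 12 other BCL2 family genes. The share of all genes without a promoter peak was not computed. It cannot be lower than the 46.9% of all genes without a peak at the promoter or in the gene. The lists are short, and differences between them were not tested.

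**Figure D3:**
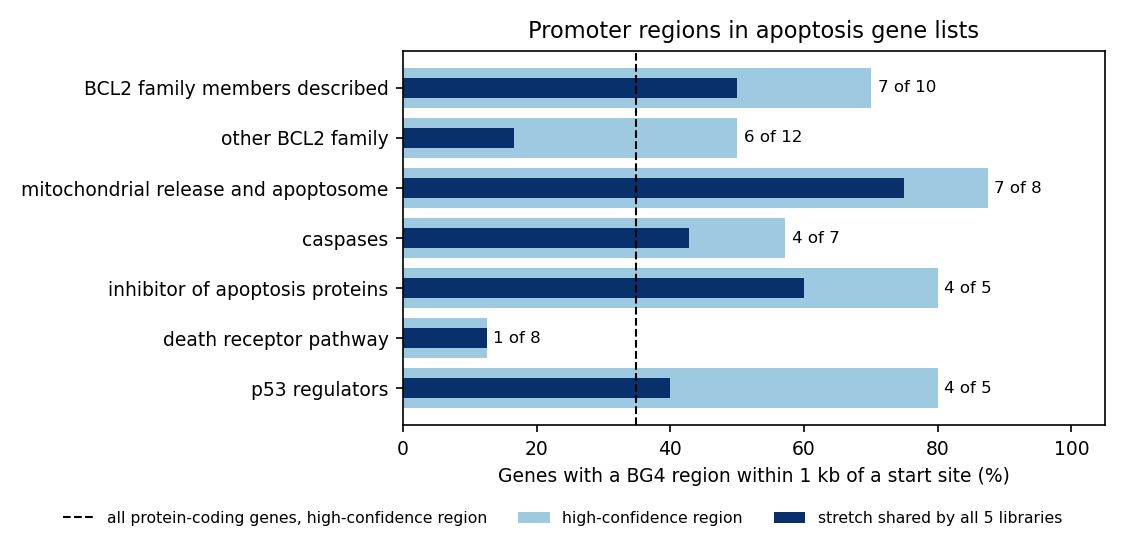
Percentage of genes with a high-confidence BG4 region within 1 kb of a start site (light bars) and with a stretch covered by all 5 libraries (dark bars) in the 10 members and in 6 lists of other apoptosis genes, with the numbers of genes. The dashed line marks 34.9% of all protein-coding genes, and of the light bars only that of the death receptor list (1 of 8) ends under it. The dark bars of the death receptor list and of the other BCL2 family (2 of 12) end under 22.1%, the share of all genes with such a stretch.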

How the data were processed

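Peaks were called per library with MACS2 on hg19, per the submitters' processing notes. Which aligner, control, settings and caller version they used is not given in the sources used here. The deposited peak lists hold a score, the fold enrichment at the summit (a ratio to the background the caller estimated) and the −log10 p. All are the authors' values, and they serve to describe peaks and to rank them inside 1 list. The deposited high-confidence list holds positions alone. Reads per library are not known here, so no interval or detection limit that needs them is given.

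Genes and start sites came from GENCODE release 44 mapped to GRCh37, and peak positions fitted the lengths of its chromosomes. The mitochondrial chromosome was left out. Overlaps, motifs and islands were computed with Python 3.11.15 and numpy 2.4.6, and the functions were tested on simulated data. The strict island is defined in the text, and the loose one used windows of 200 bp, 50% GC and a ratio of 0.6. Overlap meant 1 base or more. Means over replicates weight each biological replicate equally, after averaging its technical libraries. No test was planned, and none was made.

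The text names all members, pathway genes with a promoter stretch of all 5 libraries, the first 2 of each list, by alphabet, without a promoter peak, and neighbouring genes that start within 1 kb of a member's region. Overlapping genes are named beside them. Some items that this rule takes, and 1 region's sequence, are not reported here. Members and lists were chosen with earlier results of these data known.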

Additional observations from a re-analysis of the deposited data

Results flagged for a closer look

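The fold enrichment of library 2b at the second BCL2L11 region, 8.96, stood apart from the other 4 libraries there. Its gap to the nearest value was 0.792 of the whole range over the 5 libraries. By percentile within the lists 2b was also the highest, at 87.8, but 2c followed at 70.5 and the other libraries were more spread. Of the 12 member regions with peaks in 4 or 5 libraries, the second BCL2L11 region was the only one with a library apart by fold. Chance flags about 1 in 20 groups of independent values, which technical libraries of the same replicates are not.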

How the results depend on the processing

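The number of members with a promoter region stayed at 7 with start sites of any transcript, with promoters of 500 bp or 2 kb on either side, with the middle of the region as criterion and with peaks from both replicates. It was 5 with stretches of all 5 libraries, without MCL1 and BAX, and 5 with peaks of a −log10 p of at least 10, without BAX and BBC3 (24.9% of all genes). Leaving out 1 library gave 6 or 7, since MCL1 was lost without 1a, 1c or 2c. The pathway count, 26 of 45 genes, fell to 17 of 45 with stretches of all 5 libraries (22.1% of all genes), and was 23 to 25 with 1 library left out. The 6 regions of BBC3 became 2 with all 5 libraries (at least as many at 2.99% of genes), 2 with peaks of a −log10 p of at least 10 (3.38%), 4 with equally long lists and 3 to 6 with 1 library left out. Fewer peaks enter each of these settings by construction. The median percentile ranged from 50.7 to 65.8. Ranked by −log10 p, BAX and BAK1 stood higher, BAK1 at 70.7, and by fold BAK1 was 66.4 without 1a and 46.4 without 1c. No paired analysis was possible because all libraries share 1 condition. Unknown depth and 2 biological replicates limit what a missing peak or a percentile can show.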
